A study of Mus musculus with 16 samples.

Results

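The comparison set colonic mucosa of mice with chemically induced colitis against mucosa of healthy mice, and asked which inflammation genes differ between them. It took 8 of the 16 samples of the series, chosen by their labels alone: 4 from the DNBS group (samples 2, 3, 4 and 5) and 4 from the healthy group (samples 3, 4, 5 and 6). DNBS mice had received dinitrobenzene sulfonic acid into the rectum and phosphate-buffered saline (PBS) by mouth, and healthy mice PBS by both routes. No bacterium was given to either group, and strain, sex, age, dose and time were not given in the sources used here. RNA was read by TaqMan quantitative PCR on the OpenArray Mouse Inflammation Panel, a plate of nanolitre wells with 1 assay each. The series description mentions pooling of RNA across mice, yet samples carry separate numbers, so a sample may stand for 1 animal or for several. Standard errors and p-values of the main fit rest on the spread within groups over all 16 samples, which may be technical. The other 8 samples, from the CEC-treated and Nissle-treated DNBS groups, entered that spread only.

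DNBS is a hapten: it binds to proteins of the colon wall, which T cells and innate cells then treat as foreign. The injured mucosa draws in neutrophils, which leave the blood along gradients of CXC chemokines read by the receptor Cxcr2, followed by monocytes. Neutrophils carry calprotectin (S100a8 with S100a9) and granule proteins, while activated macrophages and epithelium make interleukin 1 beta, tumour necrosis factor and, through the inducible synthase Nos2, nitric oxide.

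Each assay gave a cycle threshold (Ct), the PCR cycle at which its signal appears, and each cycle earlier means roughly a doubling of the RNA read. A level is the gene's Ct subtracted from the mean Ct of 13 reference genes, on a log2 scale where higher means more RNA, and a Ct above 28 counted as not detected. Detected assays numbered 528 to 539 in healthy and 553 to 563 in DNBS samples, of 648, and the reference mean Ct was 19.58 ± 0.37 in healthy and 19.36 ± 0.43 in DNBS samples (SD, n = 4). Of 568 genes besides controls, 54 were detected in none of the 8 samples, 457 were detected in at least 3 samples of each group and were tested, 13 differed in detection, and 44 fell in between. The epithelial keratin Krt8 was detected in all 8 samples, from 2.85 to 4.55. In this mixed tissue, fewer cells of a type and less RNA per cell cannot be told apart.

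DNBS sample 3 stood apart from the other DNBS samples. It lay more than 1 log2 unit from its group's median in 16.3% of tested genes, against 12.1% for DNBS 4, 8.55% for DNBS 5 and 5.7% for DNBS 2, and 2.86% to 9.49% for the healthy samples. Healthy sample 3 held 57 of the 83 values that equalled, to within 2e-06 cycles, the average over the remaining 3 samples of the same group, here called filled values. Among the genes named, healthy 3 held a filled value in Cxcl1, Il8rb, Il6, Pla2g7, Ptgs2, Cd14, Cxcl10, Il17rb and Ccl28. The reference gene Ywhaz was at a Ct of 25.41 and 24.50 in DNBS 2 and 4 and 26.83 in healthy 3, but between 18.59 and 20.77 in the other 5 samples. It therefore raised every level in those 3 samples together.

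Of the 457 tested genes, 5 passed at an adjusted p under 0.05 (limma with Benjamini-Hochberg adjustment), all higher in DNBS, which is 1.09% of those tested, and 0% passed as lower. They were S100a8, S100a9, Chi3l3 (its present symbol is Chil3), Ltf and Nos2. At an unadjusted p under 0.05, 36 genes (7.88%) were higher and 9 (1.97%) were lower. In 31 genes (6.78%) every DNBS sample lay above every healthy sample, and in 8 (1.75%) every DNBS sample lay below. Over all tested genes 273 were higher and 184 lower, with a median difference of 0.12 log2 units and a median standard error (SE) of 0.47.

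S100a8 was at −0.67, 4.77, −1.63 and 0.74 in DNBS samples 2 to 5, and at −6.95, −5.06, −6.66 and −4.07 in healthy samples 3 to 6. It rose by 6.49 ± 1.5 (SE), or 89.7-fold (limma adjusted p = 0.045). Both of its assays passed when tested singly, at 6.36 and 6.62. Its partner S100a9 was at −0.89, 4.47, −2.44 and 0.2 in DNBS against −6.3, −4.92, −7.28 and −5.09 in healthy samples, and rose by 6.23 ± 1.41, or 75.3-fold (limma adjusted p = 0.045). In both genes DNBS 3 was highest and DNBS 4 lowest of its group, and no DNBS sample reached down to the healthy range.

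Chi3l3, a lectin of the chitinase family that myeloid cells secrete, was at −1.71, 0.78, −2.81 and −2.24 in DNBS against −6.72, −6.14, −7.72 and −6.77 in healthy samples. It rose by 5.34 ± 1.13 (SE), or 40.5-fold (limma adjusted p = 0.045). Ltf, the iron-binding lactoferrin of neutrophil granules, was at −1.0, −1.55, −5.04 and −2.85 against −6.81, −7.32, −6.02 and −7.57, and rose by 4.32 ± 0.95 (limma adjusted p = 0.045). DNBS 2 and not DNBS 3 was highest in Ltf, and DNBS 4 came within 1 unit of the highest healthy sample. Without DNBS 3 the differences were 5.17 for S100a8, 4.86 for S100a9, 4.58 for Chi3l3 and 3.96 for Ltf, and none of these 4 genes passed.

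Of the 9 genes listed as calprotectin and neutrophil granule genes, these 4 were tested and passed, where 1.09% of all tested genes did. Camp, Mmp25 and Ptx3 differed in detection, and the elastase Ela2 and the proteinase Prtn3 were detected in none of the 8 samples. The list was written with earlier results of these data known, so its counts and median are a description only. The median difference of the tested 4 was 5.79, against 0.12 for all genes, and 4.72 without DNBS 3. Summed over the list, with undetected genes as 0, the level relative to the reference mean was 0.698 to 51.6 in DNBS and 0.0365 to 0.103 in healthy samples. All 4 tested neutrophil markers of the 6 on the panel were higher, where 59.7% of all tested genes were, and their part in the other results was not tested.

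Nos2, the enzyme that makes nitric oxide in activated macrophages and epithelium, had the lowest p of all genes. It was at −0.17, −1.36, −1.96 and −1.91 in DNBS against −5.58, −5.81, −4.17 and −5.17 in healthy samples, and rose by 3.83 ± 0.72 (SE), or 14.2-fold (limma adjusted p = 0.0284). Its DNBS values spread less than those of the neutrophil genes, with an SD of 0.83 against 2.82 for S100a8, and its difference without DNBS 3 was also 3.83. Nos2 passed in 18 of 25 alternative fits and was the only gene to pass in 10 of them. In the 25 fits its difference ran from 3.22 to 4.17 and its limma adjusted p from 0.000914 to 0.138.

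**Figure D1:**
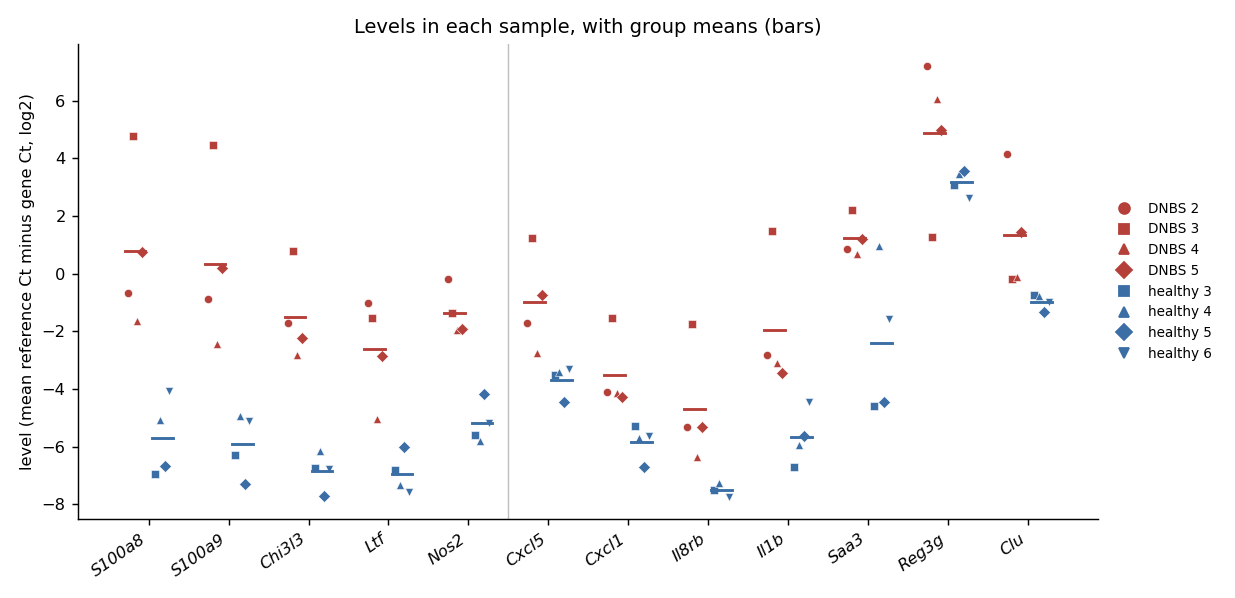
Level of 12 genes (log2, mean reference Ct minus gene Ct) in each DNBS (red) and healthy (blue) sample, with short bars at group means; the 5 genes left of the grey line passed. DNBS 3 (red squares) is highest in S100a8, S100a9, Chi3l3, Cxcl5, Cxcl1, Il8rb, Il1b and Saa3 but lowest in Reg3g, and Ltf, Nos2, Reg3g and Clu are highest in DNBS 2.

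The chemokines that call neutrophils were higher in DNBS, though none passed. Cxcl5, made largely by epithelium and stroma, was at −1.69, 1.24, −2.76 and −0.74 against −3.51, −3.4, −4.46 and −3.3, a difference of 2.68 ± 0.71 or 6.4-fold (limma adjusted p = 0.104). Cxcl1 was at −4.11, −1.53, −4.14 and −4.28 against −5.29, −5.69, −6.71 and −5.61, a difference of 2.31 ± 0.9 or 4.95-fold (limma adjusted p = 0.324). In Cxcl5 and Cxcl1 the groups did not overlap. The healthy 3 value of Cxcl1 was a filled value. The other Cxcl1 assay, in which healthy 3 was undetected at a Ct of 28.29, gave a difference of 2.64 ± 1.05. Cxcl2 was not tested, since only 2 healthy samples detected it, but its Ct was 22.28, 17.82, 23.77 and 23.7 in DNBS and 29.96, 28.07, 27.42 and 26.51 in healthy samples. Every DNBS sample thus gave Cxcl2 signal at least 2 cycles earlier than any healthy one. Cxcl3 was detected in 4 DNBS samples, at a Ct of 23.82, 18.8, 24.36 and 23.97, and in 1 healthy sample at 24.23, with the others at 30.52 or without amplification.

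Cxcl1, Cxcl2 and Cxcl3 lie close together on chromosome 5, and their promoters were set side by side because the 3 genes were read early in the same DNBS samples. The longest run of letters that the 250 bases before their starts have in common is the 11 bases GGGAATTTCCC, and no other shared run was longer than 8. It contains the classical kappa-B element, the kind of site that the inflammation factor NF-kappa-B binds. Each line runs from 20 bases before this run to the last base before the transcription start (RefSeq, GRCm38.p6, + strand, 5′ to 3′), with the run in capitals.
Cxcl1, chr5:90891154-90891244: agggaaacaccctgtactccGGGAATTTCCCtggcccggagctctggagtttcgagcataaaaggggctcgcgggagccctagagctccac
Cxcl2, chr5:90903782-90903898: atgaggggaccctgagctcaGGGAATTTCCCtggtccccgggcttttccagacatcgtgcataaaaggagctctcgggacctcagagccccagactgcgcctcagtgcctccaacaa
Cxcl3, chr5:90786008-90786100: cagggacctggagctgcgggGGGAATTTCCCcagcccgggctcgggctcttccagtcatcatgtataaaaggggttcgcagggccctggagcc

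The run began 71 bases before the start of Cxcl1, 97 before that of Cxcl2 and 73 before that of Cxcl3. Searched on both strands in windows of 300 bases (250 before the start and 50 after), it was in 14 of 32817 promoters, or 0.0427%. Of 18 genes looked for, all chosen with their values known, 15 were in the table, and the other 12, among them S100a8, S100a9, Chil3, Ltf, Il1b, Tnf and Il6, do not hold these 11 letters in that window. The run is a description of the sequence, and binding was not measured.

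The receptor and other neutrophil-directed genes followed the chemokines in sign, with 1 exception. Il8rb (now Cxcr2), the receptor for these chemokines, was at −5.33, −1.73, −6.35 and −5.31 in DNBS against −7.49, −7.27 and −7.74 in healthy samples, with healthy 5 undetected and left out of the fit. The healthy 3 value was a filled value, and with filled values left out Il8rb had too few detected healthy samples to be tested. The difference was 2.82 ± 0.86 (limma adjusted p = 0.207), or 1.84 without DNBS 3. Ppbp, a platelet chemokine, differed by 1.61 ± 0.86 (0.73 without DNBS 3) and Fpr1, the receptor for bacterial formyl peptides, by 1.47 ± 0.7, with overlapping groups. Csf3, the growth factor of neutrophils, had the opposite sign, at −7.91, −4.82 and −7.34 against −4.37, −5.19 and −6.22, a difference of −1.43 ± 1.27 with 1 undetected sample left out of each group. That value was −0.75 with any Ct under 40 counted as detected, −2.21 with a limit of 30, −0.82 without DNBS 2 and −2.37 without DNBS 3. Of the 10 genes listed here 8 were tested, 7 were higher (87.5% against 59.7% of all tested genes), 3 had an unadjusted p under 0.05 (37.5% against 7.88%) and none passed. Their median was 1.54, and 0.87 without DNBS 3.

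Detection differed in 13 of the 514 genes detected in at least 1 sample (2.53%), meaning at least 3 of 4 samples in one group and at most 1 in the other. In 12 of them detection was in DNBS, and the exception was the interferon-induced chemokine Cxcl11, detected in 0 DNBS and 3 healthy samples. With 4 samples per group the smallest p of the two-sided Fisher's exact test is 0.0286, reached by Adora3, and the lowest adjusted p was 1.0. Folds here are lower bounds, provided that late wells did not fail: undetected samples of the group with less detection were set to the limit, and every sample of the other group kept its own Ct, also past the limit.

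Il6, the acute-phase cytokine, was at a Ct of 25.75, 21.76, 24.71 and 27.4 in DNBS and 28.79, 29.95, 29.79 and 26.63 in healthy samples, and was at least 5.78-fold higher (3.04-fold without DNBS 3 and 11.2-fold without DNBS 5). Only healthy 6 was within the limit, and it lay below DNBS 5 in Ct. Cxcl3 was at least 17.2-fold higher, 7.51-fold without DNBS 3 and 32.6-fold without healthy 6. Of the granule genes, the cathelicidin Camp was at a Ct of 30.88, 23.12, 27.1 and 25.43 in DNBS against 28.8 to 30.6 in healthy samples, at least 2.22-fold higher. DNBS 2, undetected, was later than every healthy sample for Camp, and the bound was 1.07-fold without DNBS 3 and 5.59-fold without DNBS 2. Mmp25, a neutrophil surface protease, was detected in 4 against 1 samples and was at least 3.24-fold higher (1.98-fold without DNBS 3). The pentraxin Ptx3 was detected in 3 against 0 samples and was at least 1.76-fold higher, or 3.02-fold without DNBS 2. Without DNBS 3, whose Ct for Ptx3 was 22.88 with the other DNBS samples at 27.6 to 29.56, no fold could be given.

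Il1f9 (interleukin 36 gamma), an epithelial alarm cytokine, was at a Ct of 25.89, 23.29, 29.67 and 26.11 in DNBS against 2 healthy samples near 30 and 2 without amplification, at least 2.91-fold higher (1.6-fold without DNBS 3 and 5.74-fold without DNBS 4). The adenosine receptor Adora3 was detected in 4 DNBS samples at 25.91 to 27.69 and in 0 healthy ones, at least 1.64-fold higher. Il22, listed with its copy Iltifb, from which the assay cannot tell it, was detected in 3 DNBS samples at 25.86 to 27.93 and in 0 healthy ones. The undetected DNBS 2, at 28.33, was level with healthy 5, at 28.32. Il22 was at least 1.24-fold higher, but without DNBS 4, the earliest sample, no fold could be given. Clcf1, a cytokine of the interleukin 6 family, was detected in 4 DNBS samples and 1 healthy sample, at least 1.48-fold higher (1.27-fold without DNBS 4). Its detected healthy sample, healthy 5 at 26.88, was earlier than DNBS 2 at 27.76 and DNBS 5 at 26.98. Ghrl and Il12rb2 had Ct values near the limit in both groups, so that no fold is given. In 8 of the 12 genes detected more in DNBS, the bound was lowest without DNBS 3.

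**Figure D2:**
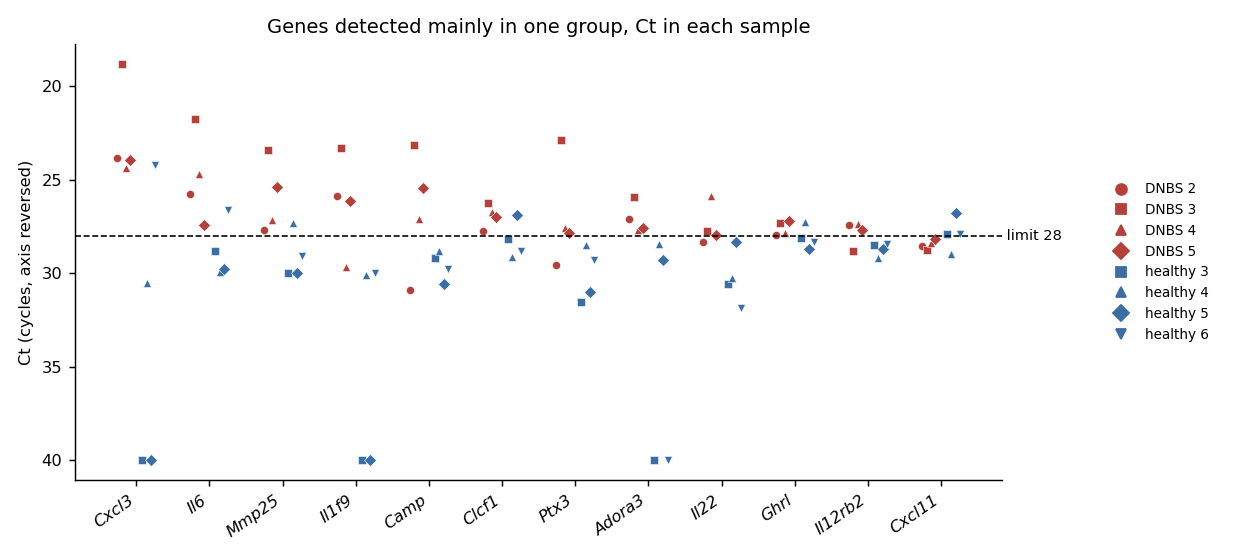
Ct (cycles, axis reversed so that more RNA is up) of 12 genes that differed in detection, in each DNBS (red) and healthy (blue) sample; the dashed line is the limit of 28 and 40 means no amplification. DNBS 3 (red squares) gives the earliest signal for Cxcl3, Il6, Mmp25, Il1f9, Camp and Ptx3, while Ghrl, Il12rb2 and Cxcl11 lie near the limit.

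Among interleukin 1 family members, Il1b, the pyrogenic cytokine released by activated myeloid cells, was at −2.81, 1.5, −3.08 and −3.45 in DNBS against −6.7, −5.93, −5.63 and −4.44 in healthy samples. The difference was 3.71 ± 1.02 (SE), or 13.1-fold (limma adjusted p = 0.107), its 2 assays gave 3.73 and 3.7, and without DNBS 3 it was 2.56. Il33, the alarmin of stromal and epithelial nuclei, was at −3.11, −1.89, −3.34 and −2.75 against −3.79, −3.47, −4.36 and −3.96, a difference of 1.12 ± 0.39. The natural antagonist Il1rn differed by 0.44 ± 0.38 and the epithelial cytokine Il18 by 0.4 ± 0.41, both with overlapping groups. The Il18 receptor chain Il18rap differed by 0.85 ± 0.48. Of 11 tested members 8 were higher (72.7% against 59.7% of all tested genes), 2 had an unadjusted p under 0.05 (18.2% against 7.88%), and the median was 0.44.

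Tnf, the cytokine that activates endothelium, was at −3.91, −4.62, −4.65 and −4.57 in DNBS against −5.96, −7.04, −5.49 and −6.23 in healthy samples, a difference of 1.74 ± 0.77, or 3.34-fold (limma adjusted p = 0.42). Its groups did not overlap, and in a fit of the 8 samples alone Tnf passed, as did the activin subunit Inhbb. Its receptor Tnfrsf1b differed by 0.91 ± 0.45 and the decoy receptor Tnfrsf11b by 0.87 ± 0.44. Of 20 tested members of the family 12 were higher (60% against 59.7% of all tested genes) and 8 lower. Their median of 0.2 turned below 0 under 3 of 6 other scalings.

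None of the genes of the acute phase and of epithelial defence passed. Saa3, a serum amyloid made locally in inflamed mucosa, was at 0.85, 2.2, 0.7 and 1.19 in DNBS but spread from −4.58 to 0.97 in healthy samples, a difference of 3.64 ± 1.31 (limma adjusted p = 0.324). Healthy 4, at 0.97, reached the DNBS range, and without it the difference was 4.76. Lbp, which hands bacterial endotoxin to its receptors, differed by 1.35 ± 0.54 with groups that did not overlap, and DNBS 4 was highest.

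Reg3g, an antibacterial lectin of the epithelium, was at 7.22, 1.27, 6.07 and 4.98 in DNBS against 3.08, 3.47, 3.58 and 2.64 in healthy samples, a difference of 1.7 ± 0.91 that was 2.9 without DNBS 3 and 0.92 without DNBS 2. DNBS 3, highest in most neutrophil genes, was thus lower in Reg3g than every healthy sample, and the other DNBS samples were above them all. The chaperone Clu was likewise led by DNBS 2, at 4.15, −0.17, −0.1 and 1.46 against −0.75, −0.77, −1.34 and −0.99, a difference of 2.3 ± 0.74 (limma adjusted p = 0.255) that was 1.36 without DNBS 2. The mucin Muc1 was at −2.23, −1.91, −1.91 and −2.42 against −3.58, −2.92, −2.81 and −2.83, without overlap, a difference of 0.92 ± 0.57.

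Of the 4 tested genes of nitric oxide, haem and hypoxia 3 were higher (75% against 59.7% of all tested genes). Each of the 3 had an unadjusted p under 0.05 (75% against 7.88%), and only Nos2 passed. The fourth, the vessel growth factor Vegfa, differed by −0.04 ± 0.41. Hmox1, which breaks down haem, was at −1.3, −0.75, −0.96 and −2.97 in DNBS against −3.51, −3.25, −4.24 and −3.05 in healthy samples, a difference of 2.02 ± 0.55 or 4.04-fold (limma adjusted p = 0.107). It passed without DNBS 5, the sample next to the healthy range. Hif1a, the oxygen-sensing transcription factor, differed by 0.9 ± 0.37 with no overlap, and Ncf1, a subunit of the oxidase that makes superoxide, by 1.38 ± 0.55 with overlap, or 0.81 without DNBS 3.

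Macrophage products were higher in part. Spp1 (osteopontin) was at −3.23, −3.13, −5.54 and −6.34 in DNBS against −7.56, −7.63, −8.36 and −6.03 in healthy samples, a difference of 2.83 ± 0.83 (limma adjusted p = 0.162), with healthy 6 above DNBS 5. The complement genes C1qa and C1qb differed by 0.69 ± 0.38 and 0.8 ± 0.57, the lipid carrier Apoe by 0.9 ± 0.47, and the endotoxin receptor Cd14 by 0.6 ± 0.47. The macrophage lectin Siglec1 differed by 1.09 ± 0.62, and DNBS 2, at −3.09, stood above the other DNBS samples, at −5.0 to −4.82. Of 13 tested macrophage and complement genes 11 were higher (84.6% against 59.7% of all tested genes) and 2 had an unadjusted p under 0.05 (15.4% against 7.88%), with a median of 0.57. Summed macrophage markers were at 0.976 to 2.1 in DNBS and 0.822 to 1.17 in healthy samples, which overlap.

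CC chemokines, which call monocytes and lymphocytes, differed in both directions. The monocyte chemokine Ccl2 was at −3.75, −2.71, −3.99 and −5.49 in DNBS against −6.36, −5.42, −6.01 and −5.3 in healthy samples, a difference of 1.79 ± 0.72, and Ccl7 differed by 1.88 ± 0.94. Ccl3 was at −4.18, −0.83, −4.33 and −8.66 against −7.8, −7.1 and −6.72, and Ccl4 at −5.73, −2.82, −5.43 and −8.29 against −7.53, −8.26 and −7.13, each with 1 healthy sample undetected and left out. In both, DNBS 5 was lower than every healthy sample within the detection limit, by very little for Ccl4. The other 3 DNBS samples were higher than those healthy samples. This order does not cover the left-out healthy samples, whose signal came past the limit. The differences were 2.7 ± 1.63 for Ccl3 and 2.07 ± 1.16 for Ccl4, 4.09 and 2.98 without DNBS 5, and 1.48 and 1.16 without DNBS 3, and Ccl4 was at 0.87 with a replicate block. The T cell chemokine Ccl5 differed by 0.42 ± 0.7, or 0.04 without DNBS 3. On the other side, the mucosal chemokines Ccl20, Ccl25 and Ccl28 differed by −0.74 ± 0.71, −0.93 ± 0.54 and −0.86 ± 0.38, and Ccl20 was at −0.21 without DNBS 3 and with a detection limit of 26. Of 15 tested CC chemokines 7 were higher (46.7% against 59.7% of all tested genes) and 8 lower.

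Adhesion genes and leukocyte surface genes were mostly higher. Itgam, the alpha chain of the myeloid integrin Mac-1, was at −1.17, −0.68, −2.41 and −2.71 in DNBS against −4.08, −2.62, −4.3 and −4.25 in healthy samples, a difference of 2.07 ± 0.78. Healthy 4 stood apart and entered the DNBS range, and without it the difference was 2.47. The shared beta chain Itgb2 differed by 1.2 ± 0.48 with no overlap, and Selp, the selectin that slows leukocytes on endothelium and platelets, by 1.76 ± 0.71, or 1.13 without DNBS 3. Sele, the selectin made by activated endothelium, was detected in 2 DNBS and 0 healthy samples. All 5 tested adhesion genes were higher, where 59.7% of all tested genes were, and 3 had an unadjusted p under 0.05 (60% against 7.88%). Their median was 1.2, or 0.8 without DNBS 3. The paired receptor Lilrb3 (now Pirb), the Fc receptor chain Fcer1g, the immune cell activator Nfam1 and the chemokine receptor Ccr1 differed by 1.58 ± 0.6, 0.98 ± 0.45, 1.1 ± 0.43 and 0.97 ± 0.37.

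Eicosanoid genes were higher in 8 of 9 (88.9% against 59.7% of all tested genes), with a median of 0.65. An unadjusted p under 0.05 was reached by 1 of them (11.1% against 7.88%), Alox5ap, the helper of leukotriene synthesis, at −2.76, −0.39, −3.48 and −3.32 against −4.7, −3.81, −4.46 and −4.61, a difference of 1.91 ± 0.66 with no overlap, or 1.21 without DNBS 3. Ptgs2, the inducible cyclooxygenase, was at −5.24, −1.98, −4.42 and −6.77 against −5.61, −7.35, −5.48 and −6.14, a difference of 1.55 ± 0.9 that was 0.67 without DNBS 3. Ptges, which acts after it to make prostaglandin E2, differed by 1.0 ± 0.72 and its constitutive counterpart Ptgs1 by 0.56 ± 0.73. Pla2g7, which degrades platelet-activating factor, differed by 1.34 ± 0.48.

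Growth factors and sensors held single genes. Inhbb, the beta chain of activin B, was at −6.57, −5.42, −6.02 and −6.62 in DNBS against −7.78, −8.03, −7.3 and −8.35 in healthy samples, a difference of 1.71 ± 0.44 (limma adjusted p = 0.104), the next in rank after the 5 that passed. Its relative Inhba, of activin A, differed by 0.81 ± 0.5 (undetected healthy 4 left out, and 0.25 without DNBS 3), Tgfb1 by 0.57 ± 0.43, and Bmp8b by 1.55 ± 0.67. Of the 20 tested members of this superfamily 9 were higher (45% against 59.7% of all tested genes) and 11 lower, and the median was −0.06. The decoy receptor Il13ra2 differed by 1.36 ± 0.55, the receptor chain Il4ra by 0.9 ± 0.4 (undetected healthy 3 left out; 2.37 with that sample set to the limit and 0.5 with the 3 most stable reference genes), the interleukin 3 receptor chain Il3ra by 0.72 ± 0.28 and the platelet growth factor Thpo by 1.09 ± 0.38. Of 25 tested Toll-like receptor genes and partners 18 were higher (72% against 59.7% of all tested genes), 3 with an unadjusted p under 0.05 (12% against 7.88%: Lbp, the adaptor Myd88 at 0.85 ± 0.37 and Tlr13 at 1.09 ± 0.51, or 0.67 without DNBS 3). Their median of 0.21 turned below 0 under 2 of 6 other scalings, as Tlr4, at 0.26 ± 0.46, did with the 3 most stable reference genes.

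Several lymphocyte cytokines were hardly read, while Il22 is given with the genes that differed in detection. Il10, Il4, Il5, Il9 and Il13 were detected in none of the 8 samples, Ifng in 1 DNBS and 2 healthy samples, and Il17a in 2 DNBS samples and 0 healthy ones. The interferon-induced chemokine Cxcl10 differed by 0.6 ± 0.93 and Cxcl9 by −0.18 ± 0.8, which was 0.28 without DNBS 3. Of 13 tested genes of the interferon axis 8 were higher (61.5% against 59.7% of all tested genes) and 5 lower, none with an unadjusted p under 0.05.

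The 9 genes lower at an unadjusted p under 0.05 differed by less than the higher ones, with a median of −1.15 against 1.72, and none passed. Ltbp4, which anchors latent TGF-beta in the matrix, was at −1.69, −2.44, −1.17 and −2.5 in DNBS against −0.63, −1.06, −0.38 and −0.58 in healthy samples, a difference of −1.29 ± 0.42 (limma adjusted p = 0.255), and its 2 assays gave −1.46 and −1.12. Il15, which sustains intraepithelial lymphocytes, was at −2.9, −4.05, −3.06 and −3.72 against −2.55, −2.45, −2.4 and −2.54, a difference of −0.95 ± 0.35. In both the groups did not overlap, and on this scaling the healthy samples of Il15 lay within 0.2 units of each other. The reference genes Ywhaz and Rplp2 raised levels by 0.97 in healthy 3 and by 0.39 to 0.58 in the other healthy samples.

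Il22ra2, the soluble protein that captures interleukin 22, was at −5.58, −6.01, −4.82 and −5.89 against −4.16, −4.06, −4.67 and −4.3, a difference of −1.28 ± 0.51. Il17rb, the receptor for interleukin 25, differed by −1.31 ± 0.53 with DNBS 3 at −8.84, and was at −0.75 without that sample. The class I gene H2-Q10 differed by −1.55 ± 0.63, the interferon regulator Irf7 by −0.93 ± 0.35, the nucleotide receptor P2ry1 by −0.94 ± 0.35 and the epithelial drug pump Abcb1a by −1.15 ± 0.5. Ccl28, given with the chemokines, completed the 9. Beyond these, Apoa1, Map2k6, Fgf11 and Fgf18 had every DNBS sample below every healthy one, at −1.13 ± 0.72, −0.57 ± 0.34, −0.91 ± 0.45 and −0.64 ± 0.47. The other assay of Apoa1, tested singly, gave −1.55 ± 0.6 (limma adjusted p = 0.316). H2-Q10 belongs to a family of near-identical genes, so its assay may read relatives.

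**Figure D3:**
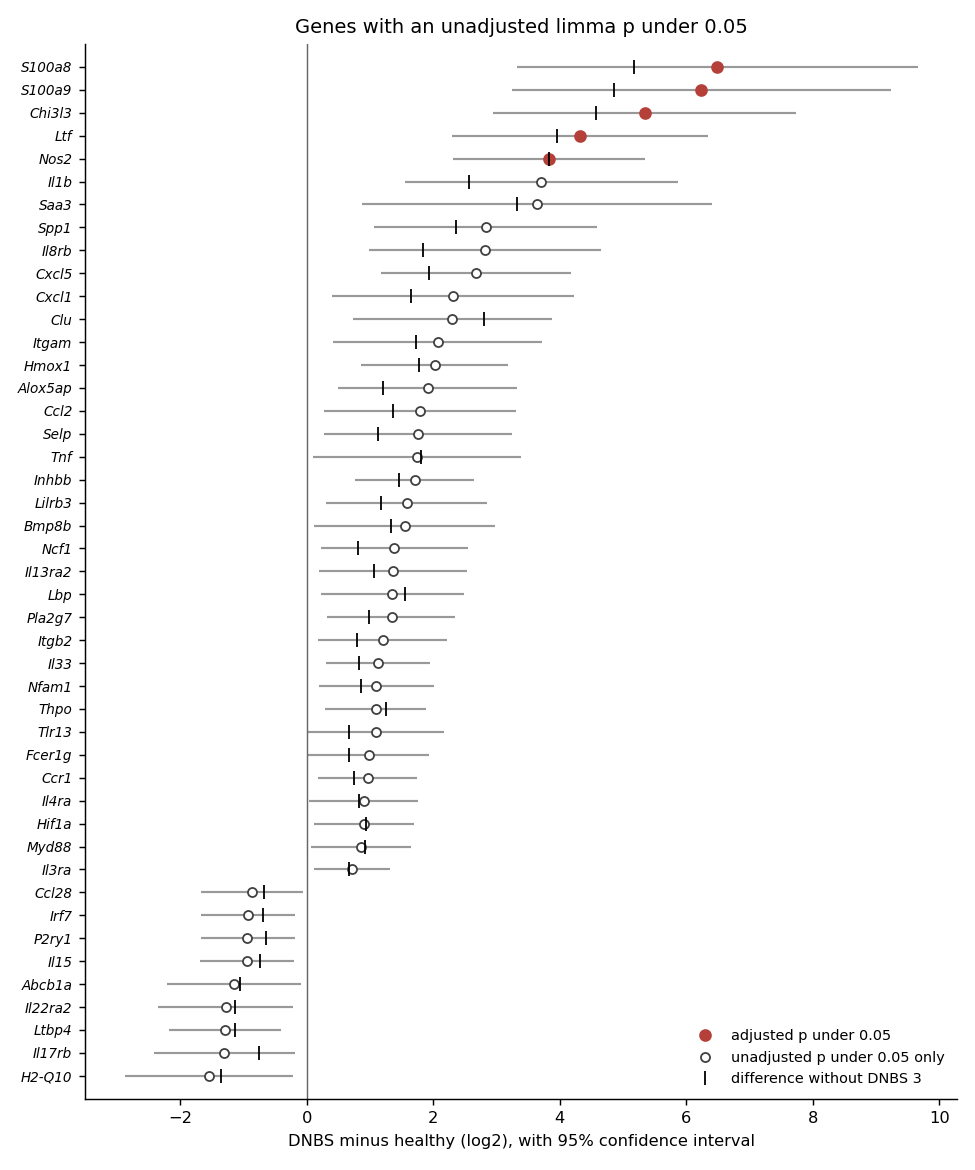
Difference of DNBS minus healthy (log2) with its 95% confidence interval for the 45 genes with an unadjusted p under 0.05; red points passed after adjustment, and black ticks give the difference without DNBS 3. The ticks lie nearer to 0 than the points for S100a8, S100a9 and Il1b, at the point for Nos2 and farther from 0 for Clu.

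Markers of lymphocytes, fat cells, epithelium and mast cells differed by less than those of neutrophils, and none passed. The T cell genes Cd4 and Cd28 differed by −0.68 ± 0.59 and −1.24 ± 0.64, with summed markers at 0.00919 to 0.0797 in DNBS and 0.037 to 0.0645 in healthy samples, and DNBS 3 was lowest in both. The B cell and follicular dendritic cell receptor Cr2 differed by −0.97 ± 0.55. Of 6 fat cell genes 1 was higher (16.7% against 59.7% of all tested genes) and 5 were lower. Among the lower were Adipoq at −0.83 ± 0.83 and Lep at −1.33 ± 0.62 (undetected DNBS 4 and healthy 6 left out). The 6 genes summed to 2.57 to 5.96 in DNBS against 1.74 to 8.33 in healthy samples. Of 3 epithelial markers tested 1 was higher (33.3% against 59.7% of all tested genes) and 2 were lower, with a median of −0.16. They summed to 8.25 to 21.9 in DNBS and 7.86 to 24.5 in healthy samples, which overlap. Krt8, the higher one, differed by 0.16 ± 0.66, a sign that turned under 3 of 6 other scalings. Of the lower 2, Ccl28, given with the chemokines, had an unadjusted p under 0.05, as 1.97% of all tested genes did on the lower side. The mast and pacemaker cell receptor Kit differed by −0.55 ± 0.48.

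**Figure D4:**
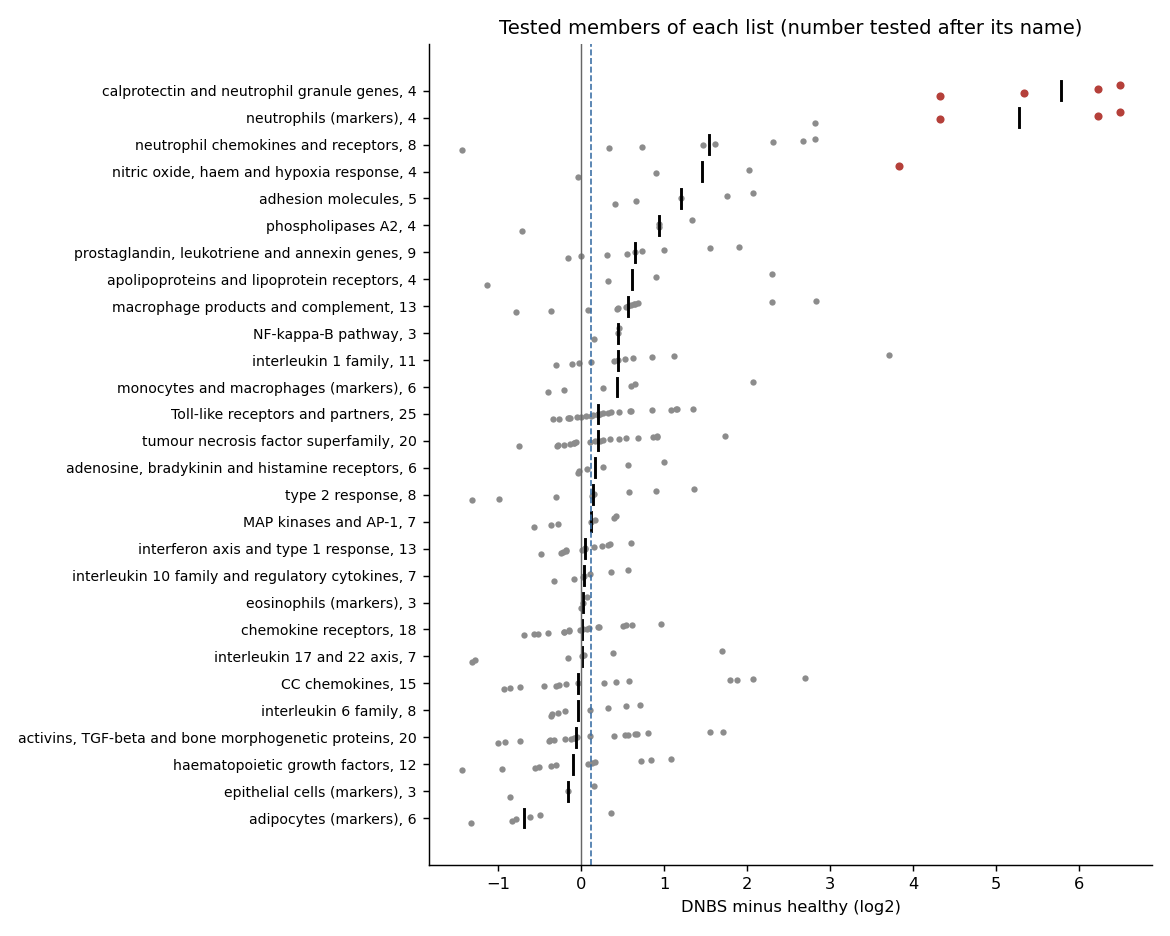
Difference of DNBS minus healthy (log2) for each tested gene (grey points; red where it passed) in the lists with at least 3 tested genes, with a black bar at the list's median and a dashed blue line at the median of all tested genes, 0.12. The neutrophil granule genes stand at 4.32 to 6.49, and most other lists are centred between −0.1 and 1.54.

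Many of these differences were larger with DNBS 3 than without it. Among the 36 higher genes it was the highest DNBS sample in 27, DNBS 2 in 6, DNBS 4 in 3 and DNBS 5 in 0, and DNBS 5 was the lowest in 19. Among the 9 lower genes DNBS 3 was the lowest in 7 and DNBS 2 in 0. With Ywhaz and Rplp2 left out of the reference, DNBS 3 was the lowest in 5 of these 9 and DNBS 2 in 2. On that scaling DNBS 3 was the highest in 28 of the 36 higher genes. The median difference of the 36 higher genes was 1.72 with all samples and 1.35 without DNBS 3, against 1.59, 1.78 and 1.84 without DNBS 2, 4 or 5. All 36 remained higher, and all 9 lower, in each of the 25 alternative fits that tested them. No gene passed without DNBS 3, and none passed without DNBS 2, healthy 3, healthy 4 or healthy 6. Without healthy 5 only Nos2 passed, without DNBS 5 Nos2 and Hmox1, and without DNBS 4 the 5 genes and Cxcl5.

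The balance of higher and lower genes turned with the scaling. With the 13 reference genes 36 genes were higher and 9 lower at an unadjusted p under 0.05, or 80% higher. Without Ywhaz and Rplp2, the reference genes of widest spread (within-group SD 3.47 and 1.01 cycles, against 0.27 to 0.57 for the others), 33 were higher and 19 lower. With the 3 most stable reference genes 20 were higher and 33 lower (37.7% higher), and with the global mean 27 and 37 (42.2% higher). The median of all genes moved from 0.12 to −0.15 and −0.11 under those last scalings.

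**Figure D5:**
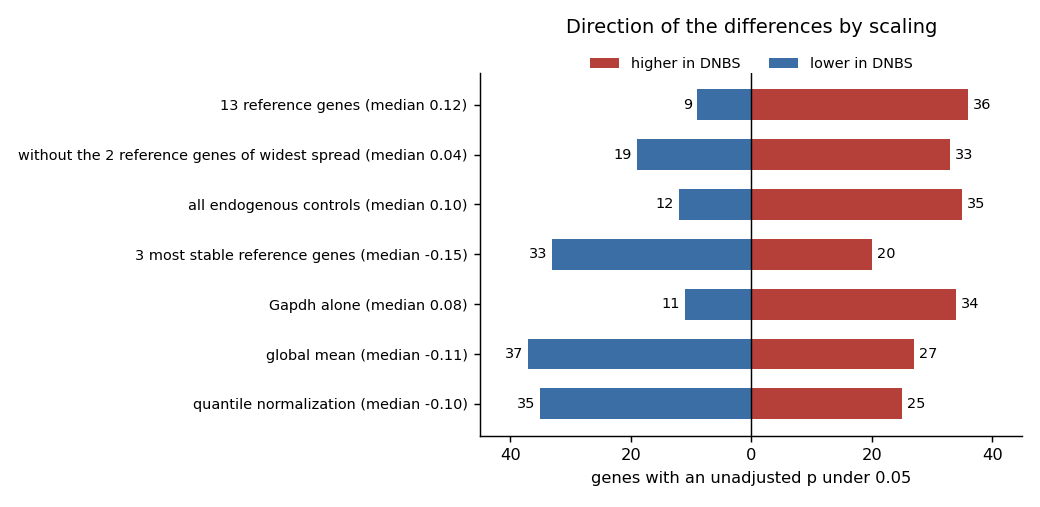
Number of genes with an unadjusted p under 0.05 that were higher (red, to the right) or lower (blue, to the left) in DNBS under 7 scalings, with the median difference of all tested genes (log2) in brackets. Higher genes outnumber lower ones 36 to 9 with the 13 reference genes, and lower ones outnumber higher ones under the global mean, quantile normalization and the 3 most stable reference genes.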

How the data were processed

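The authors deposited raw Ct values without normalization (recorded as unit other), 1 per assay and sample, with 40 for no amplification. Per the labels' protocols, RNA was isolated with a mirVana kit and run on TaqMan OpenArray cards; thresholding software was not given in the sources used here. The digit pair 40 is missing from assay names and many decimals, so a value can be off by less than 1 cycle, and 5.39% of values have 4 or fewer decimals. A Ct holds no count of molecules, so there is no counting interval.

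Levels were the mean Ct of 13 reference genes (19 assays) minus the gene's Ct; of several assays of a gene, the one detected in the most samples of the series was used, and assays equal in this were averaged. Genes detected (Ct up to 28) in at least 3 samples of each group were fitted with limma 3.58.1 (lmFit, eBayes) in R 4.3.3 over all 16 samples (12 residual degrees of freedom), leaving out 24 undetected values in 21 genes. Benjamini-Hochberg adjustment ran over 457 genes, with a threshold of 0.05. Detection was compared with Fisher's exact test in scipy 1.17.1. The fit was tested on simulated data. Alternatives changed the reference, normalization, detection limit, filter, edited values, samples and variance model.

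The members and lists were chosen with earlier results of these data known. Named are the genes that passed, the next 20 higher and the 12 lowest in p among the lower, detection differences, up to 4 per list and those without overlap, a set of cytokines and enzymes, and cell type markers. Some genes are not reported here.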

Additional observations from a re-analysis of the deposited data

Results flagged for a closer look

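Single samples stood apart from the other 3 of their group (by Dixon's test at its 95% critical value for 4 samples), which chance alone gives in about 1 group in 20. In DNBS 3, Il1b was at 1.5 with the others between −3.45 and −2.81, Cxcl1 at −1.53 with the others between −4.28 and −4.11, Cxcl3 at 0.2 with the others between −4.98 and −4.22, and Krt8 at 2.99 with the others between 4.2 and 4.42. In DNBS 2, Tnf was at −3.91 and Siglec1 at −3.09, above the others, and in DNBS 4 Fgf11 was at −6.61, above the others. In healthy 4, Itgam was at −2.62 and Apoa1 at −3.49, both above the others. In healthy 6, Ptges was at −5.11 and Itgal at −5.75, both below the others. Cd4 in healthy 5, at −4.46, was above the others, and Muc1 in healthy 3, at −3.58, was below them. These levels include the reference genes Ywhaz and Rplp2. The 2 genes raised all levels by 0.49 to 1.0 in DNBS and 0.39 to 0.97 in healthy samples, most in DNBS 2 and healthy 3. Flags such as Tnf in DNBS 2 may therefore depend on the scaling, and the number of groups screened is not given here.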

How the results depend on the processing

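The 5 genes that passed kept their direction in each of the 25 alternative fits that tested them, but the count did not hold. It was 1 without the 2 reference genes of widest spread, with all endogenous controls, the 3 most stable reference genes, a detection limit of 30 or 26 or any Ct under 40, values above the limit set to 28, at least 2 detected values per group, or values of 4 or fewer decimals left out, and that gene was Nos2 each time. It was 0 with the global mean or quantile normalization, 3 with the trend and robust variance, and 0 to 6 with single samples left out. Sample numbers 3, 4 and 5 occur in both groups, and their deviations correlated at −0.23, −0.06 and 0.28 over 412 genes. Whether samples of the same number share more than the number cannot be told from these values. A replicate block left 2 genes passing. The 45 genes at an unadjusted p under 0.05 became 69 in a fit of the 8 samples alone and 24 to 57 with single samples left out. The 39 genes without overlap became 60 with the 3 most stable reference genes and 47 to 76 with a sample left out. The 13 detection differences became 22 at a limit of 26 and 4 with any Ct under 40. Tlr4 turned to −0.01 with the 3 most stable reference genes and −0.08 with the replicate block, Cxcl9 to 0.28 without DNBS 3 (−0.52 to 0.28 with a sample left out), and Krt8 to −0.11, −0.07 and −0.09 with the 3 most stable reference genes, global mean and quantile normalization and −0.16 without healthy 6 (−0.16 to 0.48 with a sample left out). Of 93 differences of single genes followed, 46 moved by over 1.5 times in at least 1 alternative, 26 of them without DNBS 3, 16 with the 3 most stable reference genes and 10 with the replicate block. Apart from fewer samples or genes in a fit, causes were not tested. Late Ct values limit the precision of genes near the limit.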
